A study of Mus musculus with 23 samples.

Results

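Trp53, the gene of the tumour suppressor p53, and 9 of its regulators and classical targets were described over mouse cerebellar tumours and normal cerebellar samples. The members were Trp53, Mdm2, Mdm4, Ccng1, Bax, Bbc3, Pmaip1, Sesn2, Trp53inp1 and Eda2r, 10 genes in all, and every probe set annotated to 1 of these symbols alone was taken. The rule gave 17 probe sets for 8 genes, of 45037 probe sets and 18193 named genes. Trp53 itself and Bax had no probe set of their own in the annotation used and were not analysed here, so the level of the deleted gene could not serve as a check of the labels.

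RNA levels came from 23 Affymetrix arrays of the mouse genome, 1 for each sample, on which a transcript is read by sets of short probes, and values are RMA signals on a log2 scale. The TF tumour (1 array) arose after PEI-mediated transfection of Cas9 and a guide against Ptch1 into the newborn cerebellum. The study did this in mice of several Trp53 genotypes, and the TF tumours it profiled were from Trp53-/- mice. The EP tumours (2 arrays) were induced by Cas9 and a guide against the same gene, delivered to wild-type embryos through in utero electroporation. The other models were tumours of germline Ptch1+/- mice (4 arrays), MERP tumours of Atoh1-CreERT2;Ptch1 fl/fl mice, in which the inducible recombinase is active in cells that express Atoh1 (Math1) and was induced after birth (5 arrays), and GTML tumours (Glt1-TRE;MycN;Luciferase) driven by Mycn (4 arrays). Normal samples were granule neuron precursors (GNPs) of pups at postnatal days 4 to 7 (3 arrays) and adult cerebellum (4 arrays). No Trp53 alteration is given for any group except TF. All labels give the strain as CD1, while the methods describe the newborn injections in C57BL/6N mice, so Trp53 genotype, delivery and possibly strain differ together between TF and EP and cannot be told apart. The study profiled more CRISPR tumours than the arrays held here and lists their mice, but the titles do not say which mouse each array came from. For the other groups nothing in the labels ties each array to an animal of its own, and p-values then measure only the spread between these samples.

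p53 is a transcription factor that is held at a low level by the ubiquitin ligase Mdm2 and its partner Mdm4. After DNA damage or oncogene signals it escapes this control and switches on genes for cell cycle arrest, repair and cell death, among them Mdm2 itself, which closes a feedback loop. In the cerebellum p53 is best known for the death of granule neuron precursors after irradiation, and its loss makes Sonic hedgehog medulloblastoma more frequent in Ptch1-deficient mice.

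To show what DNA lies at the start of these genes, 300-base windows were taken from RefSeq (GRCm38.p6), from 250 bases before to 50 after the start site. They were searched on both strands for the p53 half-site decamer, a pattern that reads the same on either strand. Pmaip1 was left out of the member windows and is not reported here, and no window was found for Trp53inp1. The other 8 members had 11 windows in all, and 4 of these held a match, those of Mdm2, Ccng1, Trp53 and Bax. Of all 32851 windows, 8.36% held one. Mdm2 and Ccng1 are shown as the measured members with a match, and Eda2r as the member with the widest range between groups, without one. Each is written on the gene's strand with the match in capitals, chr10:117710709-117711008 (-) for Mdm2, chr11:40755237-40755536 (-) for Ccng1 and chrX:97377160-97377459 (-) for Eda2r. A match is only a run of letters and was not tested as a binding site.
Mdm2: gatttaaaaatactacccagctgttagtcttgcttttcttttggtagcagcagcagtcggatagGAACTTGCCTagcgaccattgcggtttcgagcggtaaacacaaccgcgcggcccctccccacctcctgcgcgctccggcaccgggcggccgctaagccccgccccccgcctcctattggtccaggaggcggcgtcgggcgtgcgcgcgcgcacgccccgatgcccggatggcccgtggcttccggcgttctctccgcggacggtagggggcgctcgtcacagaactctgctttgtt
Ccng1: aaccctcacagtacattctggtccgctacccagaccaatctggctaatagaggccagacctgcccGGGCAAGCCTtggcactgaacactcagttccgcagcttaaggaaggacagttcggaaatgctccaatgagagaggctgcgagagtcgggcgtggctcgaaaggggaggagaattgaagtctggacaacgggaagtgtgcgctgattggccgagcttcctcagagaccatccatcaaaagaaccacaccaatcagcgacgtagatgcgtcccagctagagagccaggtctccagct
Eda2r: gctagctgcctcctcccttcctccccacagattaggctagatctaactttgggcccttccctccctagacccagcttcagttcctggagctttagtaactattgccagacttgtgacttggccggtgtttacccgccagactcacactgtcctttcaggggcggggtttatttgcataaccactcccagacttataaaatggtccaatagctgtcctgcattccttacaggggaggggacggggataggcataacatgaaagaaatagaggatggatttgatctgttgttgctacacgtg

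Signs of RNA quality ran along some of these groups. The 3′ minus 5′ signal of the actin and Gapdh control probe sets, which grows as RNA shortens, was 0.21 in TF and 0.19 to 0.23 in EP, but 0.99 to 1.53 in Ptch1+/-, 0.40 to 1.71 in MERP and 1.10 to 1.28 in GTML tumours. In GNPs it was 0.31 to 0.53 and in adult cerebellum 0.47 to 0.54. The TF value lay within the EP range, and the part of this measure in the differences from the other tumours was not tested.

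Other cell types also differed between TF and EP. Mean levels of mature granule neuron markers were 7.37 in the TF tumour, against 8.47 and 9.85 in the EP tumours, and 11.59 to 11.69 in adult cerebellum. Ccng1 reached its highest group mean in adult cerebellum by probe sets 1420827_a_at and 1450017_at. By 1450016_at it was highest in EP (7.35, against 7.03 in adult cerebellum). Over the marker lists the median difference of TF from EP was -1.67 for mature granule neurons, with 1 of 8 genes called (adjusted p under 0.05 by limma, as below), -1.83 for Purkinje cells, -1.57 for oligodendrocytes, -0.98 for microglia and macrophages and -0.50 for astrocytes and Bergmann glia. It was 1.89 for choroid plexus, 1.31 for meninges and fibroblasts and 0.72 for endothelial cells and pericytes, with no call in these lists. Granule neuron precursor markers (-0.07) and proliferation genes (0.19) were near 0. In such bulk samples fewer cells of a type and less RNA per cell cannot be told apart, and the part of these cells in the members' values was not tested.

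**Figure D1:**
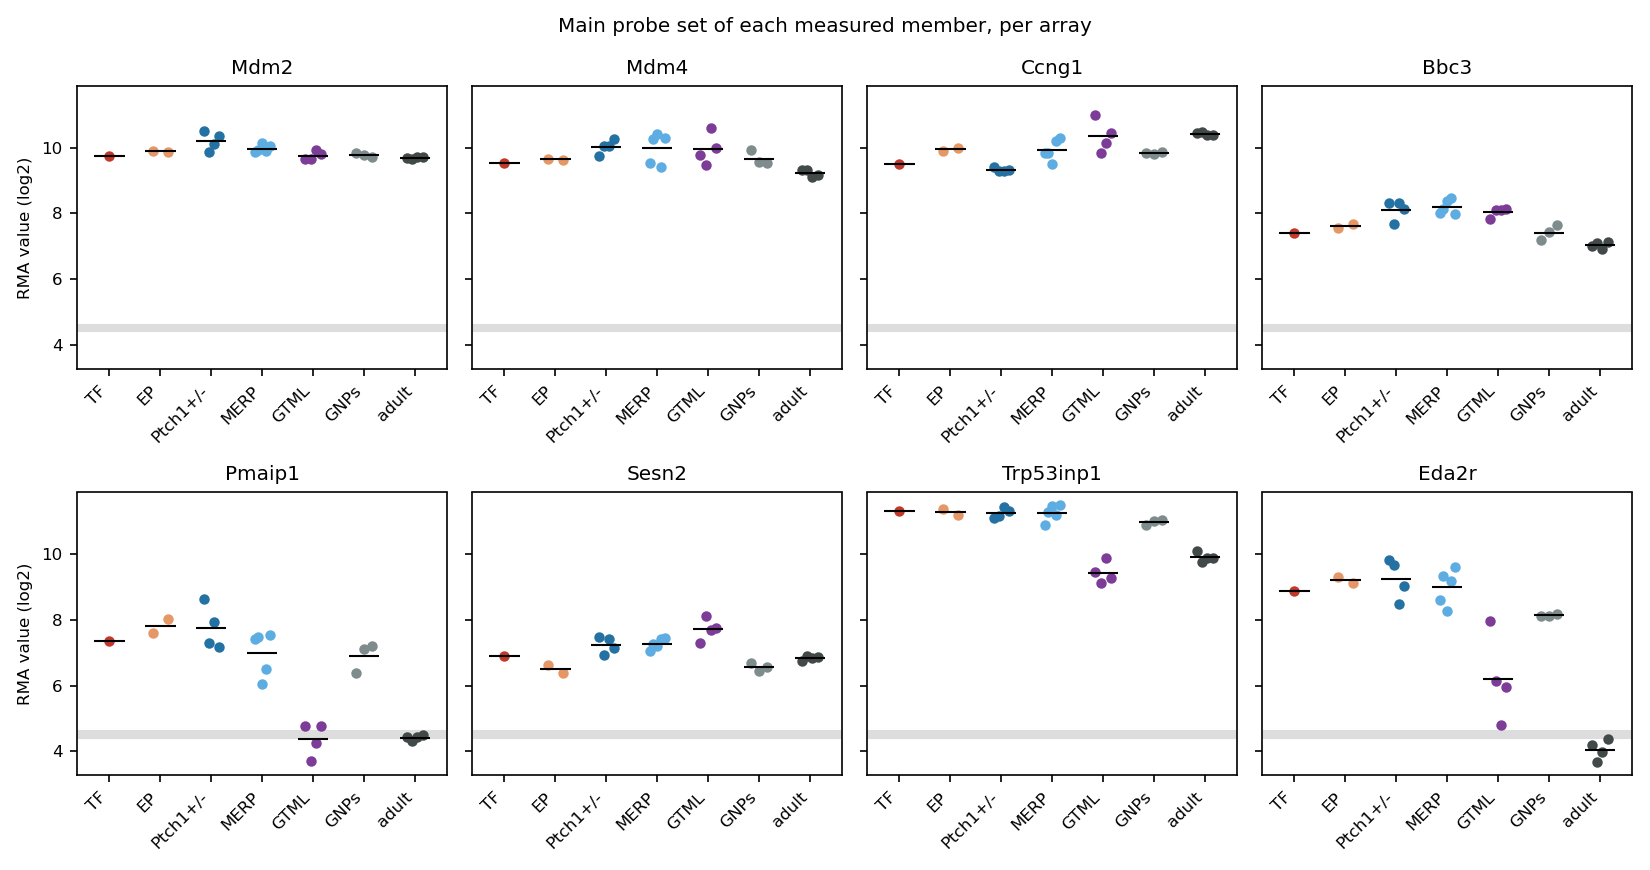
RMA values (log2, vertical axis) of the main probe set of the 8 measured members, by group (horizontal axis); each point is 1 array, the black line is the group mean, and the grey band is the range of the arrays' lower quartiles. Pmaip1 in GTML and adult samples and Eda2r in adult cerebellum lie near or below the band, and the TF point lies below all other tumour points for Bbc3 only.

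The first question was whether the targets of p53 were lower in the TF tumour than in the EP tumours, which were induced by disruption of the same gene. None of the 8 measured members passed the test in either direction. By limma, a linear model with moderated errors, with Benjamini-Hochberg adjustment over all 45037 probe sets, 0 of 8 were called at an adjusted p under 0.05, and 0 had an unadjusted p under 0.05. Over all named genes 1.88% were called in this comparison at the adjusted p. Their share at the unadjusted p was not counted, here or in the comparisons below. The other probe sets of the members were not called either, 0 of all 17. Here and below a gene is counted by its main probe set, the one with the highest mean over all arrays. The median difference of the members was -0.18 (log2), against 0.0028 over all named genes. The TF group is 1 array, whose spread was assumed to be that of the other groups, and the intervals are therefore wide.

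Mdm2 and Mdm4, the inhibitors of p53, lay just below both EP arrays in the TF tumour by their main probe sets, without a call. Mdm2 (probe set 1423605_a_at) was 9.76 in the TF tumour, against 9.92 and 9.88 in the EP tumours, a difference of -0.14 with a 95% interval from -0.54 to 0.27. Mdm4 (1460542_s_at) was 9.55 in the TF tumour, against 9.67 and 9.62 in the EP tumours. Their further probe sets were divided on this. Mdm2 1457929_at, near background, was also below, at 4.18 in the TF tumour against 4.31 and 4.31 in EP. So was Mdm4 1458223_at, at 5.61 in the TF tumour against 5.90 and 5.66 in EP. The others were not below both EP arrays. Mdm2 1427718_a_at was 8.07 in the TF tumour, between the EP values of 8.12 and 7.91, and Mdm4 1419558_at was 5.90, between 6.05 and 5.67. Mdm4 1453982_at was 4.78 in the TF tumour and 4.72 in both EP tumours, little above the arrays' lower quartiles (4.40 to 4.61). For the main Mdm2 probe set a loss of more than 0.54 lay outside the interval, which is not adjusted for the number of probe sets. For 1427718_a_at and 1457929_at the lower limits were -0.60 and -1.19. Changes too small for the adjusted test could not be detected, and how large a change it would call is not given here.

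Among the targets with roles in cell death, Bbc3 (PUMA) and Pmaip1 (NOXA) encode BH3-only proteins that act upstream of BAX. Bbc3 (1423315_at) was 7.40 in the TF tumour, against 7.56 and 7.69 in the EP tumours (difference -0.23, interval -0.76 to 0.30). Pmaip1 (1418203_at) was 7.37 in the TF tumour, against 7.59 and 8.02 in the EP tumours (difference -0.44, interval -1.69 to 0.81). Both lay below the EP arrays, by less than the test could call. Trp53inp1 (1416926_at), a nuclear protein that promotes p53-dependent death and autophagy, was 11.33 in the TF tumour, between the EP values of 11.39 and 11.20. Eda2r (1440085_at), a receptor of the tumour necrosis factor family that binds ectodysplasin A2, was 8.88 in the TF tumour, against 9.32 and 9.11 in the EP tumours (difference -0.34, interval -1.96 to 1.29).

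Ccng1 encodes cyclin G1, which recruits a phosphatase to Mdm2, and Sesn2 encodes sestrin 2, a stress protein that restrains mTORC1. Ccng1 (1420827_a_at) was 9.52 in the TF tumour, against 9.90 and 10.002 in the EP tumours (difference -0.43, interval -1.10 to 0.24). Its 2 further probe sets were also below both EP arrays, at 7.68 in the TF tumour against 8.03 and 8.20 in EP, and at 7.03 in the TF tumour against 7.42 and 7.29 in EP. Sesn2 (1451599_at) ran the other way, at 6.91 in the TF tumour, against 6.63 and 6.38 in the EP tumours (difference 0.41, interval -0.13 to 0.95), and its second probe set did the same, at 6.25 in the TF tumour against 6.08 and 5.31 in EP. Both differences were wider than the gap between the EP arrays, and neither passed the test.

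**Figure D2:**
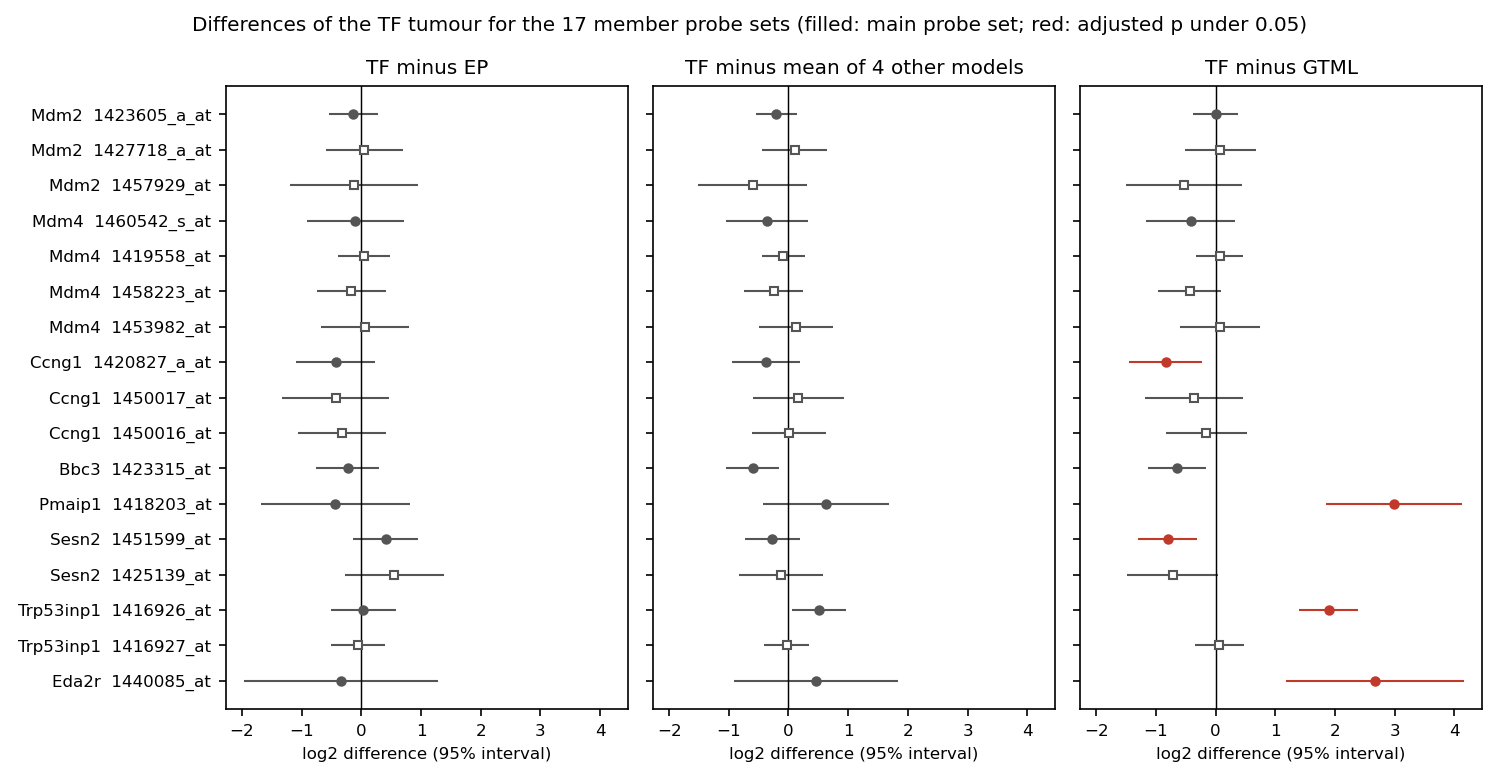
Differences in log2 value (horizontal axis, with 95% intervals from limma) between the TF tumour and the EP tumours, the mean of the 4 other tumour models, and the GTML tumours, for all 17 member probe sets (vertical axis); filled circles are main probe sets and red marks an adjusted p under 0.05. All intervals cross 0 against EP, and 5 main probe sets are red against GTML.

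Against the mean of the 4 other tumour models, again 0 of 8 members were called by limma, with 3.91% of named genes called. Of the members 2 had an unadjusted p under 0.05, a threshold at which named genes were not counted. Bbc3 differed by -0.60 ± 0.21 (SE, adjusted p = 0.129) and Trp53inp1 by 0.52 ± 0.22 (adjusted p = 0.205). By model, Trp53inp1 in the TF tumour differed by 0.03 from EP, 0.07 from Ptch1+/-, 0.06 from MERP and 1.90 from GTML tumours. Its difference from the mean thus came from GTML. Bbc3 in the TF tumour was the lowest of 16 tumours, below all 15 others, whose values ran between 7.56 and 8.48. Among all named genes, 5.46% had their lowest tumour value in TF, as 1 of the 8 members did. No member had its highest tumour value in TF, against 7.63% of named genes.

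By model, Bbc3 was 7.40 in the TF tumour, against 8.31, 7.67, 8.32 and 8.14 in the Ptch1+/- tumours, and this was the 1 member called lower there (-0.71 ± 0.23, adjusted p = 0.0284 by limma). In that comparison 23.7% of named genes were called and 4.82% were called lower, and the members' median was -0.39 against 0.11 for all named genes. The call was lost without Ptch1+/- replicate 3 (adjusted p = 0.0562), with arrays centred on every probe set (0.0591) and with only the groups compared (0.195). Markers that also differed from Ptch1+/- tumours were those of meninges and fibroblasts (5 of 6 higher in TF), Purkinje cells (4 of 7) and microglia and macrophages (4 of 8), and their part was not tested. A minor probe set of Mdm2 (1457929_at), near background in most groups, was also lower, at 4.18 in the TF tumour against 4.53, 5.59, 6.31 and 6.57 in the Ptch1+/- tumours (adjusted p = 0.0192, with 24.9% of all probe sets called). The main Mdm2 probe set differed by -0.45 (adjusted p = 0.0696). Against MERP tumours, with Bbc3 at 8.02, 8.13, 8.38, 8.48 and 7.99, no member was called by limma (background 2.52%) and 1 had an unadjusted p under 0.05. There Bbc3 differed by -0.80 ± 0.23 (adjusted p = 0.0708), and no MERP array overlapped the TF value.

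The EP tumours, from wild-type embryos, also had a lower mean of Bbc3 than these models. Their values were 7.56 and 7.69. Both lay below all MERP arrays, but the higher one was above Ptch1+/- replicate 2 (7.67). Set against the same 2 models in comparisons added after the values had been seen, EP tumours differed by -0.49 ± 0.18 from Ptch1+/- tumours (adjusted p = 0.0394) and by -0.57 ± 0.17 from MERP tumours (adjusted p = 0.0356). Sesn2 was lower in EP as well. Its EP values of 6.63 and 6.38 lay below the Ptch1+/- values of 7.49, 6.93, 7.41 and 7.14 (-0.74 ± 0.18, adjusted p = 0.0037) and below the MERP values of 7.05, 7.26, 7.21, 7.43 and 7.45 (-0.78 ± 0.18, adjusted p = 0.0072). The second Sesn2 probe set (1425139_at) was called lower in EP than in Ptch1+/- tumours (-1.03, adjusted p = 0.0074 by limma). Against MERP it was not called (-0.41, adjusted p = 0.368), and the arrays overlapped. By the main probe set the TF value of 6.91 for Sesn2 was below all of these Ptch1+/- and MERP arrays too, without a call. By 1425139_at the TF value of 6.25 was below the Ptch1+/- arrays but within the MERP range (5.75 to 6.38). Ccng1 was higher in EP than in Ptch1+/- tumours by 0.63 ± 0.23 (adjusted p = 0.0362), and both of its further probe sets were called the same way. In all 3 of 8 members were called there, 1 higher and 2 lower, with 34% of named genes called, 26.7% higher and 7.33% lower. Against MERP 2 of 8 were called lower, with 13.2% of named genes called and 4.49% lower. Over all probe sets 35.5% were called against Ptch1+/-, among them the minor Mdm2 probe set, which was 4.31 and 4.31 in EP and thus as low as in TF (-1.44, adjusted p = 0.0040). Without EP replicate 2, 0 members were called in either comparison, and without EP replicate 1, 1 in each. Of 32 alternatives, 8 lost the Bbc3 call and 7 the Ccng1 call against Ptch1+/-, and 6 the Bbc3 call against MERP. EP tumours also differed from both models in several marker lists. Purkinje cell markers were higher in EP in 7 of 7 against Ptch1+/- (median 4.77) and 6 of 7 against MERP (4.99), and those of microglia and macrophages in 8 of 8 (2.31) and 7 of 8 (1.98). Oligodendrocyte markers were higher in 3 of 7 (2.20) and 4 of 7 (2.21). Of the mature granule neuron markers 7 of 8 were higher in each comparison, with mean levels of 8.47 and 9.85 in EP, against 6.21 to 6.55 in Ptch1+/- and 5.35 to 6.39 in MERP tumours. The part of these cells was not tested.

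The scaling of the arrays bore on the balance of calls over all genes. With each array centred on its named probe sets, 62% of calls in TF against Ptch1+/- tumours were higher instead of 79.7%, 44.4% instead of 69.3% against MERP, 52.3% instead of 64.6% against GTML and 61.6% instead of 75.7% against the other tumours. For EP the share of higher calls was 51.3% instead of 78.4% against Ptch1+/- and 30.5% instead of 66.1% against MERP (54.8% when centred on every probe set), and for the other tumours against GNPs it was 56.5% instead of 30.1%. The median of all named genes then moved to -0.07 in TF against Ptch1+/-, to -0.15 against MERP, to -0.12 against GTML and to -0.21 in EP against MERP, from values within 0.11 of 0.

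Among the tumours, the widest differences of the members separated the Mycn-driven GTML tumours from all Ptch1 models, TF included. Pmaip1, Eda2r and Trp53inp1 were higher in the TF tumour than in GTML tumours, and Sesn2 and Ccng1 were lower, 5 of 8 members by limma. Of all named genes 21.5% were called, 13.9% higher and 7.6% lower. The members' median was -0.21, against 0.01 for all named genes.

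Pmaip1 was 7.37 in the TF tumour, against 4.76, 3.70, 4.26 and 4.78 in the GTML tumours (2.99 ± 0.55, adjusted p = 0.00058). The GTML values lie at or about the lower quartiles of the arrays (4.40 to 4.61), so this difference is a lower limit. Eda2r was 8.88 in the TF tumour, against 7.96, 6.15, 4.79 and 5.94 in the GTML tumours (2.67 ± 0.71, adjusted p = 0.0112). GTML replicate 1 stood well above the other arrays of its group for this gene. Trp53inp1 was 11.33 in the TF tumour, against 9.47, 9.12, 9.87 and 9.27 in the GTML tumours (1.90 ± 0.24, adjusted p = 1.02e-05), and the mean of its 2 probe sets gave 0.98, since Trp53inp1 1416927_at differed by only 0.06 (adjusted p = 0.864). For none of these 3 genes did the TF value overlap the GTML values.

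Sesn2 was 6.91 in the TF tumour, against 7.31, 8.13, 7.69 and 7.74 in the GTML tumours (-0.80 ± 0.24, adjusted p = 0.0207). Ccng1 was 9.52 in the TF tumour, against 11.01, 9.84, 10.14 and 10.44 in the GTML tumours (-0.84 ± 0.29, adjusted p = 0.0486). The Ccng1 call was at the threshold and was lost under 20 of 31 alternatives, with -0.62 and an adjusted p of 0.0749 without GTML replicate 1. With only the groups compared in the fit, the calls of Eda2r (adjusted p = 0.192) and Sesn2 (adjusted p = 0.22) were lost too. It was also lost with the mean of the probe sets (-0.45, adjusted p = 0.333), and its further probe sets were not called. Bbc3 differed by -0.65 (adjusted p = 0.0522). The second Sesn2 probe set (1425139_at) differed by -0.72 and was not called, with the TF value of 6.25 above GTML replicate 4 (6.18). Beside these members, 8 of 8 granule neuron precursor, 4 of 6 choroid plexus, 3 of 6 meninges and fibroblast and 3 of 8 astrocyte markers were higher in the TF tumour, and 3 mature granule neuron markers were higher and 2 lower, and their part was not tested.

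The EP, Ptch1+/- and MERP tumours, set as the mean of 3 groups in a comparison added after the values had been seen, differed from GTML tumours in these 5 members and in Mdm2, 6 of 8 by limma, with 40.9% of named genes called, 21.4% higher and 19.5% lower. Pmaip1 was higher by 3.15 ± 0.29 (adjusted p = 4.41e-08), a lower limit, since its GTML level is near background. Its 11 values lay between 6.03 and 8.62, all above the 4 GTML arrays. Eda2r was higher by 2.95 ± 0.38 (adjusted p = 3.51e-06) and Trp53inp1 by 1.84 ± 0.13 (adjusted p = 5.40e-10), and both groups were fully separate for each. Sesn2 was lower by -0.71 ± 0.13 (adjusted p = 0.000154) and Ccng1 by -0.62 ± 0.16 (adjusted p = 0.0035), with overlapping arrays, and -0.40 for Ccng1 without GTML replicate 1. Of the further probe sets, with 36% of all probe sets called, Sesn2 1425139_at (-0.79) and Ccng1 1450017_at (-0.70) were lower too. Not called were Ccng1 1450016_at (-0.22), Trp53inp1 1416927_at (0.12), and Mdm2 1427718_a_at (-0.03) and 1457929_at (0.10). With the mean of the probe sets of a gene the Trp53inp1 difference was 0.98 and the Mdm2 difference 0.11. Mdm2 was higher by 0.27 ± 0.10 (adjusted p = 0.0313), a call that 8 of 32 alternatives lost. All 8 granule neuron precursor markers were also higher than in GTML tumours, with means over the list of 10.56 to 11.07 in these 3 models, against 5.99 to 6.78 in GTML tumours, and their part in these differences was not tested.

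**Figure D3:**
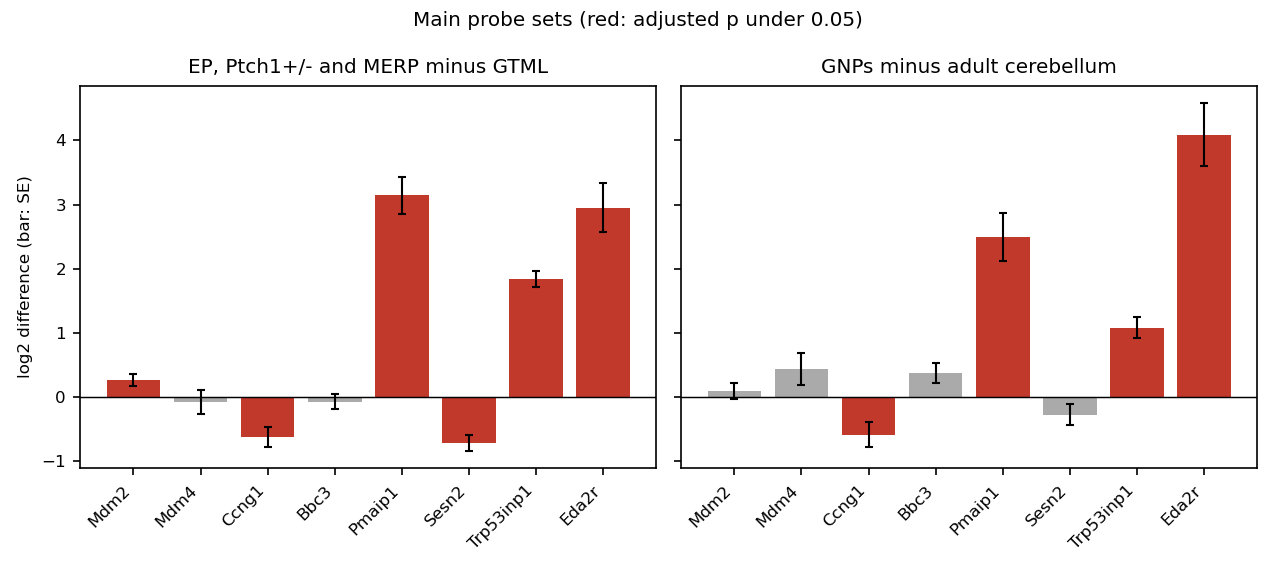
Log2 differences (vertical axis, bars with SE from limma) of the 8 measured members between EP, Ptch1+/- and MERP tumours and GTML tumours (left) and between GNPs and adult cerebellum (right); red bars have an adjusted p under 0.05. Pmaip1, Trp53inp1 and Eda2r are above 0 and red in both panels, and Ccng1 is below 0 and red in both.

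In normal tissue, Eda2r, Pmaip1 and Trp53inp1 were higher and Ccng1 lower in proliferating GNPs than in adult cerebellum, 4 of 8 members by limma, with 49.5% of named genes called, 28.9% higher and 20.6% lower. Eda2r was 8.12, 8.12 and 8.18 in GNPs, against 4.18, 3.66, 3.99 and 4.36 in adult cerebellum (4.09 ± 0.49, adjusted p = 6.09e-07). Pmaip1 was 6.37, 7.12 and 7.22 in GNPs, against 4.42, 4.32, 4.43 and 4.48 in adult cerebellum (2.49 ± 0.37, adjusted p = 1.26e-05). The adult levels of both genes were near background, and these differences are lower limits. Trp53inp1 was 10.90, 11.001 and 11.06 in GNPs, against 10.09, 9.77, 9.88 and 9.89 in adult cerebellum (1.08 ± 0.16, adjusted p = 1.15e-05). Its second probe set (1416927_at) went the other way by -0.36 (adjusted p = 0.0329, with 42.6% of all probe sets called), so the probe sets of this gene disagree, and the mean of both gave 0.36. Ccng1 was 9.84, 9.81 and 9.88 in GNPs, against 10.45, 10.49, 10.38 and 10.40 in adult cerebellum (-0.58 ± 0.20, adjusted p = 0.0223), without overlap. This call was lost without GNPs replicate 1 (adjusted p = 0.0536) and without GNPs replicate 2 (adjusted p = 0.0640). It was also lost with the mean of the probe sets of the gene (-0.48, adjusted p = 0.0658). Ccng1 1450017_at was lower as well (-0.99, adjusted p = 0.0048), while 1450016_at was not called and had the other sign (0.13, adjusted p = 0.703). Markers of other cells moved in this comparison. Purkinje cell (7 of 7) and oligodendrocyte markers (7 of 7) and 6 of 8 mature granule neuron markers were lower in GNPs. The mean over the Purkinje list was 7.68 to 7.77 in GNPs, against 13.56 to 13.70 in adult cerebellum, and that over the oligodendrocyte list 6.79 to 6.85 in GNPs, against 10.93 to 11.21 in adult cerebellum. Higher in GNPs were 6 of 6 choroid plexus, 6 of 6 meninges and fibroblast and 7 of 8 endothelial and pericyte markers, besides 7 of 7 proliferation and 6 of 8 granule neuron precursor markers. Their part in the members' differences was not tested.

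Relative to GNPs, the TF tumour had 0 of 8 members called by limma, with 7.7% of named genes called and 0 members at an unadjusted p under 0.05. For the mean of the other tumours, Bbc3 (0.58 ± 0.13, adjusted p = 0.0028) and Sesn2 (0.62 ± 0.14, adjusted p = 0.0020) were higher than in GNPs, 2 of 8 members with 26.3% of named genes called and 7.9% higher. The second Sesn2 probe set was higher too (0.78, adjusted p = 0.0088). In the same comparison markers of choroid plexus (6 of 6, median -3.38), meninges and fibroblasts (6 of 6, -3.27), endothelial cells and pericytes (8 of 8, -2.85) and granule neuron precursors (6 of 8, -0.82) were lower in the tumours, 4 of 8 microglia and macrophage markers were higher and 1 lower (median 0.93), and their part was not tested. Bbc3 was 7.18, 7.43 and 7.63 in GNPs. The TF value of 7.40 lay within that range, at a difference of -0.02 (interval -0.52 to 0.48), the EP value of 7.56 also did, and the EP value of 7.69 lay just above it. Sesn2 was 6.69, 6.43 and 6.58 in GNPs, below the TF value of 6.91, with the EP values of 6.63 and 6.38 partly within their range.

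The order of the group means showed how few steps were clear. For Bbc3 it ran MERP (8.20), Ptch1+/- (8.11), GTML (8.05), EP (7.62), GNPs (7.41), TF (7.40) and adult cerebellum (7.04), and no neighbours passed the test. For Pmaip1 it ran EP (7.80), Ptch1+/- (7.76), TF (7.37), MERP (6.99), GNPs (6.90), adult cerebellum (4.41) and GTML (4.37), with 1 step that passed, between GNPs and adult cerebellum. For Eda2r it ran Ptch1+/- (9.25), EP (9.21), MERP (9.01), TF (8.88), GNPs (8.14), GTML (6.21) and adult cerebellum (4.05), and the last 2 steps passed. For Trp53inp1 TF (11.33), EP (11.29), MERP (11.27), Ptch1+/- (11.26) and GNPs (10.99) followed each other without a step that passed, while the steps to adult cerebellum (9.91) and on to GTML (9.43) passed. Sesn2 was highest in GTML (7.72), which passed against MERP (7.28), followed by Ptch1+/- (7.24), TF (6.91), adult cerebellum (6.84), GNPs (6.57) and EP (6.50) with no further clear step. Ccng1 ran adult cerebellum (10.43), GTML (10.36), EP (9.95), MERP (9.94), GNPs (9.85), TF (9.52) and Ptch1+/- (9.32), with no neighbours that passed. The same held for Mdm2, with Ptch1+/- (10.22) at the top and adult cerebellum (9.69) at the bottom, and for Mdm4, from 10.03 in Ptch1+/- to 9.23 in adult cerebellum. Of 7 groups TF stood at place 6 for Mdm4, Ccng1 and Bbc3, at 5 for Mdm2, at 4 for Sesn2 and Eda2r, at 3 for Pmaip1 and at 1 for Trp53inp1. The comparisons behind the steps that passed called 39% of named genes in MERP against GTML, 42.1% in GTML against GNPs and 54.6% in GTML against adult cerebellum.

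The genes whose main probe sets were most like Mdm2 over the 23 arrays were Ptpn23 (Pearson r = 0.86), Brpf1, Nr4a2, Scaf8 and Atxn7l2 (each r = 0.83). For Ccng1 they were Tnnc1 (r = 0.88), Adcy2 (r = 0.88), Pam16 (r = 0.87), Atp5k (r = 0.87) and Desi1 (r = 0.86). These correlations describe 23 arrays of 7 groups that share their group differences.

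The wider p53 pathway was followed in a list of 39 other targets (37 measured), 25 regulators (23 measured) and the family members Trp63 and Trp73. Against EP, 0 of these 37 targets, 23 regulators and 2 family members were called in the TF tumour, and the targets' median difference was 0.03, against 0.0028 for all named genes. Against the other tumours 2 targets were higher and 0 lower, where 2.96% of named genes were called higher, and neither regulators nor family members were called. Ddit4, an inhibitor of mTORC1 that also responds to hypoxia, was 11.94 in the TF tumour, above the highest other tumour (11.71 in MERP replicate 1), and differed by 0.88 ± 0.24 (adjusted p = 0.0479). Pml, which organises nuclear bodies and is also induced by interferon, was 8.63 in the TF tumour, against 8.23 and 8.01 in EP tumours. It was 6.77 to 7.38 in Ptch1+/-, 7.34 to 8.17 in MERP and 4.78 to 6.12 in GTML tumours. The TF tumour differed from the mean of these models by 1.52 ± 0.32 (adjusted p = 0.0112 by limma), a mean that the low GTML values pull down.

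Cdkn1a and Cdkn2a were chosen from the lists after their values were seen. Cdkn1a, which encodes the cell cycle inhibitor p21, was 9.17 in the TF tumour, against 8.40 and 8.82 in the EP tumours (0.56 ± 0.52, adjusted p = 0.880), 9.14 to 9.85 in Ptch1+/- and 9.75 to 11.005 in MERP tumours. Cdkn2a, whose product Arf blocks Mdm2 and which also encodes the CDK inhibitor p16, was 10.22 in the TF tumour, against 7.26 and 8.36 in the EP tumours (2.41 ± 1.09, adjusted p = 0.420). It was 9.82 to 10.27 in GTML and 5.33 to 10.23 in MERP tumours, and lay at 3.97, 4.34 and 4.19 in GNPs, a difference of 6.05 ± 1.03 for TF against GNPs (adjusted p = 0.00092). GNP levels of Cdkn2a were near background, so this is a lower limit.

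In GTML tumours the pathway lists moved both ways. In the TF tumour 11 targets were higher and 2 lower than in GTML tumours, with 13.9% and 7.6% of named genes called in each direction, and the median difference of the 37 targets was 0.22. Plk3 (2.36) and Sesn1 (1.19), a kinase of the stress response and a relative of Sesn2, were among the higher ones and were picked after their values were seen. Btg2, an antiproliferative gene (-2.31), and Tigar, which lowers glycolytic flux (-1.06), were the lower ones. Of the 23 regulators 4 were higher and 2 lower.

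**Figure D4:**
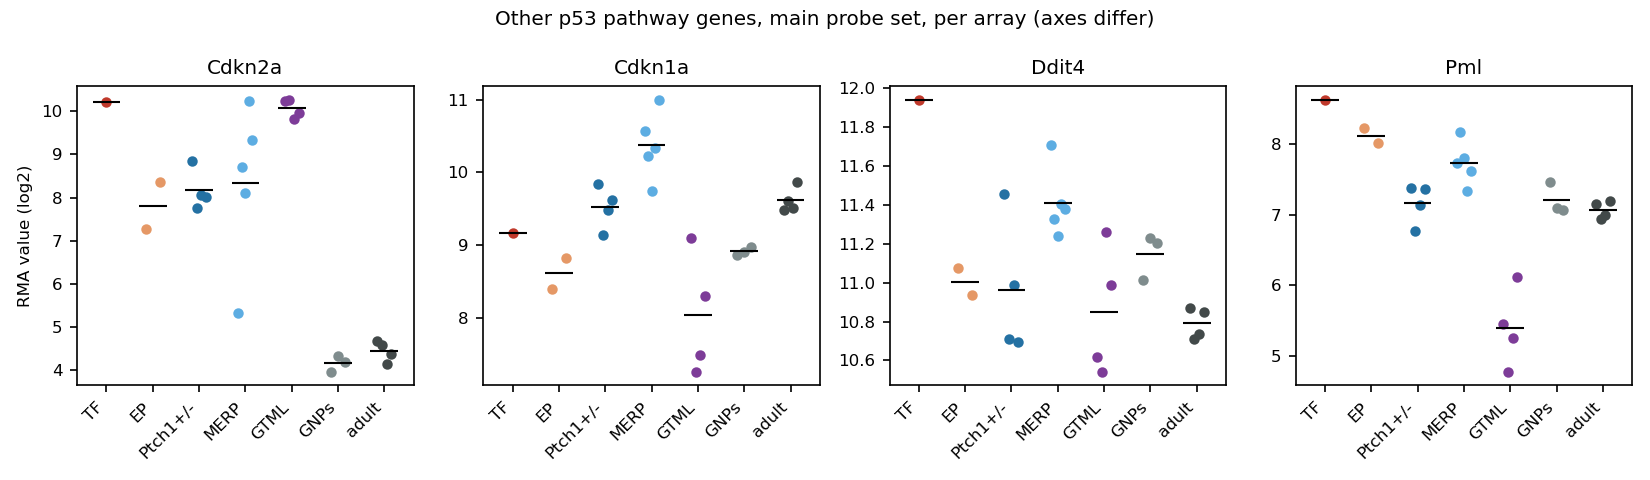
RMA values (log2, vertical axes, which differ between panels) of Cdkn2a, Cdkn1a, Ddit4 and Pml by group (horizontal axis); each point is 1 array and the black line is the group mean. Cdkn2a is near 4 in GNPs and adult cerebellum and above 5 in all tumours, and Ddit4 and Pml are highest in the TF tumour.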

How the data were processed

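The authors extracted total RNA and hybridised it to Affymetrix arrays of the mouse genome. Per the labels and methods, the deposited log2 values were made with Affymetrix Expression Console 1.3.1 by RMA (background correction, quantile normalization, probe summary); which arrays were normalized together is not given in the sources used here. RMA compresses differences of dim probe sets. The values were used as deposited, without missing values, and the number of arrays limits the precision. Probe sets were named through the platform annotation, with symbols updated by Entrez identifier (34741 of 34945 probe sets annotated to 1 gene). 64 control probe sets were left out of the tests.

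The 7 groups of the sample titles were fitted in 1 limma 3.58.1 model (R 4.3.3, eBayes with default settings, 16 residual degrees of freedom, 23 arrays), Benjamini-Hochberg adjusted over 45037 probe sets and called at an adjusted p under 0.05. The main probe set of a gene was that with the highest mean. All member probe sets were described, other pathway genes were named where called in TF against EP or the other tumours, and further names were chosen after their values were seen. A group mean at or below the arrays' lower quartiles (4.40 to 4.61) was read as near background, a reading chosen after seeing the data. Alternatives were 3 other scalings, a filter on dim probe sets, other probe set rules, other eBayes settings, fits of only the groups compared, a replicate block and leaving out arrays. The code was tested on simulated data. The members and lists were chosen with earlier results of these data known.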

Additional observations from a re-analysis of the deposited data

Results flagged for a closer look

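Of 68 sets of 4 or 5 arrays of 1 group tested over the 17 member probe sets, 1 held an array far from the others, where chance alone gives about 1 in 20. Bbc3 in GTML replicate 1 was 7.83, against 8.10 to 8.14 in the other 3 GTML arrays, and its gap made up 0.891 of the group's range. Without GTML replicate 1 the difference of the TF tumour from GTML tumours in Bbc3 was -0.72, with an adjusted p of 0.039 by limma, against 0.0522 with it.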

How the results depend on the processing

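The count of 0 called members in the TF tumour against EP, and against the other tumours, was 0 under all alternatives run. In the TF tumour against Ptch1+/- tumours the count of 1 became 0 with arrays centred on every probe set or with only the groups compared in the fit, and 2 with quantile normalization, centring on named probe sets or the mean of a gene's probe sets. It lay between 0 and 2 when 1 array was left out. Against MERP the count of 0 became 1 with centring on named probe sets or the mean of probe sets, and lay between 0 and 1 with 1 array left out. With only the groups compared, which leaves fewer arrays to measure the spread, 2 members rather than 5 were called against GTML, 1 rather than 0 against GNPs, 7 rather than 4 in GNPs against adult cerebellum, and 1 rather than 2 in EP against MERP, where trend and robust eBayes also gave 1. With 1 array left out, TF against GTML gave 4 to 6, GNPs against adult cerebellum 3 to 5, EP against MERP gave 0 to 2 and EP against Ptch1+/- 0 to 3 (1 without Ptch1+/- replicate 3 or 4). The cause of these shifts was not tested.

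None of the differences that changed sign was called, either as deposited or under the alternative. With arrays centred on all probe sets, Ccng1 in the other tumours against GNPs was -0.0012. With quantile normalization, Trp53inp1 in TF against Ptch1+/- was -0.046, Mdm2 in TF against GTML -0.12 and Bbc3 in TF against GNPs 0.013. With centring on named probe sets, Trp53inp1 was -0.10 against Ptch1+/- and -0.075 against MERP, Mdm2 was -0.13 against GTML and 0.0037 against GNPs, and Bbc3 was 0.016 against GNPs. With the mean of probe sets, Trp53inp1 was -0.012 against EP and -0.030 against Ptch1+/-, Ccng1 was 0.0070 against MERP, Mdm2 was -0.15 against GTML and 0.090 against GNPs, Mdm4 was 0.035 against GNPs, Trp53inp1 in the other tumours against GNPs was 0.049 and Mdm2 in GNPs against adult cerebellum -0.12. Without GTML in the mean of tumours, TF differed from it by -0.15 in Pmaip1 and -0.28 in Eda2r, and the other tumours from GNPs by -0.11 in Ccng1, 0.62 in Pmaip1 and 0.29 in Trp53inp1. Of these, Pmaip1 and Eda2r changed most, being 0.63 and 0.46 in TF against the other tumours with GTML, and Pmaip1 -0.17 in the other tumours against GNPs. With 1 array left out, ranges that crossed 0 were -0.059 to 0.13 (Trp53inp1, TF against EP), -0.034 to 0.059 (Mdm2, TF against GTML), -0.0083 to 0.089 (Ccng1, other tumours against GNPs), -0.24 to 0.13 (Mdm4, EP, Ptch1+/- and MERP against GTML), -0.035 to 0.11 (Trp53inp1, TF against MERP), -0.31 to 0.023 (Eda2r, TF against MERP), -0.19 to 0.0069 (Mdm4, TF against GNPs) and -0.14 to 0.090 (Bbc3, TF against GNPs).

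With the replicate block, 4 rather than 5 members were called in TF against GTML, since Ccng1 had an adjusted p of 0.0510, and the other counts above were as without it. The numbers did not pair the samples, with a block correlation of -0.04, 8 of 46 same-numbered pairs above 0.1 and 3 of 22 arrays closest to their own number. A single TF array, 2 EP arrays and levels near background limit what could be seen.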
